A study of Mus musculus with 2 samples.

Results

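The cells described here were synovial macrophages that carried the highest score for *Aqp1*, *Ildr2* and *Uaca* among 7 sets of 3 genes. They numbered 945 of the 12956 barcodes in both libraries. Cells were kept when 500 or more genes had been detected and mitochondrial UMIs did not exceed 10%, which left 10249. Of these, 7322 were taken as macrophages (the eligible macrophages), with at least 10 UMIs of *C1qa*, *C1qb* and *C1qc* together and fewer than 5 UMIs of *Ccl17* and *Cd209a* together. A UMI, or unique molecular identifier, counts 1 captured RNA molecule. A cell's score for a set was the mean, over the set's genes, of the gene's standardized log level, and the 945 cells, called Aqp1 macrophages below and members in the plots, had the *Aqp1* set as their highest score, at 0.5 or more. These 3 genes therefore chose the cells, and their levels are given as a description only.

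CD45+CD11b+ cells had been sorted from the hind paws of arthritic wild-type C57BL/6 mice at day 17 of arthritis. The β-glucan-trained group had received 1 mg β-glucan and the PBS-control group PBS, 7 days before arthritis induction, and both groups were arthritic, so no library of cells without arthritis enters the comparison. Each group was 1 library from 4 mice, aged 7 to 10 weeks at the start of the experiments, and no label ties a cell to its mouse. The labels of the samples describe arthritis induced with antibodies and lipopolysaccharide in both groups, whereas the design text of the series and the methods of the study give K/BxN serum transfer arthritis. The sort kept cells with CD45 and CD11b on their surface, so cells without CD11b were selected against. In all, 81611849 UMIs in 7196 barcodes were deposited for the β-glucan library, and 73874602 UMIs in 5760 barcodes for the PBS library. With 1 library per group there is no replicate and no test between the groups, and cells are not replicates. All intervals are 95% intervals that cover counting error only.

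Macrophages of the joint fall into a lining at the surface of the synovium, with barrier-like cells, and interstitial cells of the tissue beneath, some of which lie along vessels. *Lyve1*, a receptor for hyaluronan best known from lymphatic endothelium, also marks resident macrophages near vessels. *Aqp1* codes for a water channel of erythrocytes, endothelium and other epithelia and secretory tissues, and *Fxyd2* for the gamma subunit that tunes the Na,K-ATPase.

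Both libraries held Aqp1 macrophages. They were 516 of 4242 eligible macrophages with β-glucan (12.2%, Clopper-Pearson interval 11.2% to 13.2%) and 429 of 3080 with PBS (13.9%, 12.7% to 15.2%). Of all cells that passed the filter they were 9.06% and 9.42%. The Aqp1 macrophages were as deep as the other macrophages, with a median of 13266 UMIs against 13400 in the β-glucan library and 15900 against 15671 in the PBS library, and a median of 4180 against 4070 and 4502 against 4375 detected genes. The libraries shared 7 barcodes, of which 1 was an Aqp1 macrophage of the PBS library and none was one in both. The threshold cut through few cells. Just outside it, at a score of 0.4 to 0.5, lay 23 β-glucan and 14 PBS cells, with *Aqp1* at levels of 1213 and 1280 CPM, the UMIs of the gene per 1000000 UMIs of all genes in the cells summed. Just inside it, at 0.5 to 0.6, lay 30 and 23 cells, with *Aqp1* at 998 and 1358 CPM.

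*Aqp1*, *Ildr2* and *Uaca* are set out first because they define the cells. *Ildr2* codes for an immunoglobulin-like domain receptor known from tricellular junctions and from lipid metabolism, and *Uaca* for a coiled-coil protein linked to apoptosis. In GRCm39, *Aqp1* lies at chr6:55313068-55325540, *Ildr2* at chr1:166081665-166146159 and *Uaca* at chr9:60701728-60789428, all on the forward strand. *Uaca* overlaps 1 annotated gene on its own strand, so its counts are less certain. The 250 bases before the start of each, from RefSeq on GRCm38.p6, are at chr6:55336049-55336298, chr1:166253889-166254138 and chr9:60794192-60794441, also on the forward strand. They are shown 5′ to 3′, since they are the sequence beside the start of the genes that mark these cells. Capitals mark GAGGAA, the core of sites for PU.1, on either strand (TTCCTC on the other), and CACGTG, an E-box of the kind read by MITF.
Aqp1: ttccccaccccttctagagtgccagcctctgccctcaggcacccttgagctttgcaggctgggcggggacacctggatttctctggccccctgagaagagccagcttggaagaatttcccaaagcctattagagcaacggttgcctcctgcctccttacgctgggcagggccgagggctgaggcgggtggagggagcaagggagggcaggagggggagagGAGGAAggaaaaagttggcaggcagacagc
Ildr2: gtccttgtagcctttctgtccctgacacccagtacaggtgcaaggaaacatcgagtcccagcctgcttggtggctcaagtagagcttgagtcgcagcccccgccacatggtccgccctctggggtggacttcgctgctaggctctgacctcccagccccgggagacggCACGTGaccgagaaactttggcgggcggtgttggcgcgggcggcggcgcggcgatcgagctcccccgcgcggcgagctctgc
Uaca: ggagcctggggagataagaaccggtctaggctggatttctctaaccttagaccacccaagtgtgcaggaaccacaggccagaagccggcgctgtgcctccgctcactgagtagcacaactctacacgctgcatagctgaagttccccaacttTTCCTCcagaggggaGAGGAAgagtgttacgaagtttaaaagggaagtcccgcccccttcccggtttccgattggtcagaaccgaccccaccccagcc
The letters GAGGAA occur 1 time before *Aqp1*, 2 times before *Uaca* and not before *Ildr2*, which holds the only CACGTG of the 3. TGCTGA, a half-site for MAF factors, was searched as well and occurs before none of the 3. Of 32536 RefSeq promoters of the same length, 23.4% hold GAGGAA, 6.04% CACGTG and 16.1% TGCTGA on either strand. A match describes letters and not a bound site. The table has no entry for *Fxyd2* or *Lyve1*. The genes of PU.1 and MITF were measured in Aqp1 macrophages. *Spi1*, which codes for PU.1, was at 402 CPM with β-glucan and 423 CPM with PBS, and *Mitf* at 605 and 355 CPM.

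*Aqp1* was at 1756 CPM in the Aqp1 macrophages of the β-glucan library against 525 CPM in its other eligible macrophages, and at 1689 against 515 CPM in the PBS library. *Ildr2* was at 114 against 7.88 CPM and 118 against 7.12 CPM. *Uaca* was at 140 against 19.6 CPM and 125 against 20.1 CPM. These gaps follow from the rule. Outside the members, *Ildr2* was highest in the cells of the *Ednrb*, *C4b* and *Enpep* set (the Ednrb set), at 22.0 and 26.3 CPM. The other 2 markers had no part in the score. *Fxyd2* (chr9:45310967-45322004 in GRCm39) was at 1796 against 658 CPM with β-glucan, a log2 ratio of 1.45 (1.42 to 1.48), and at 1836 against 685 CPM with PBS, a log2 ratio of 1.42 (1.39 to 1.45). *Lyve1* (chr7:110448585-110462460, reverse strand) was at 1691 against 663 CPM, a log2 ratio of 1.35 (1.32 to 1.38), and at 1764 against 593 CPM, a log2 ratio of 1.57 (1.54 to 1.60). Both genes were thus high in these cells in both libraries, in keeping with their name, which is a description of the cells that the score picked and not a test.

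**Figure D1:**
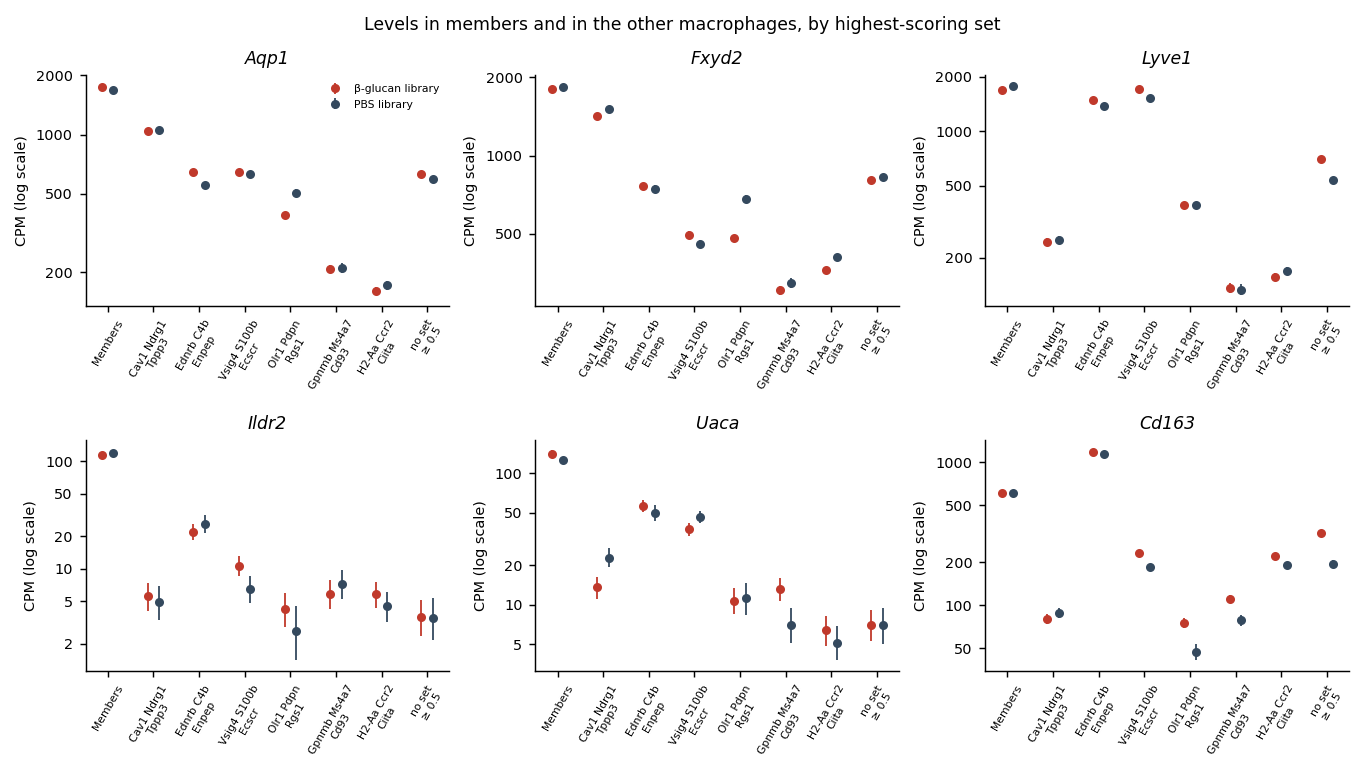
CPM (log scale) of 6 genes in the Aqp1 macrophages (Members) and in the macrophages whose highest score was for another set, named by the genes of that set, in the β-glucan library (red) and the PBS library (dark blue). Points are sums over all cells of a set in 1 library and bars are exact 95% Poisson intervals. *Fxyd2* was next highest in the Cav1 set at 1424 and 1506 CPM, whereas *Lyve1* was there at 245 and 250.5 CPM.

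The order of the sets differed from gene to gene. *Aqp1* was next highest in the cells of the *Cav1*, *Ndrg1* and *Tppp3* set (the Cav1 set), at 1041 and 1062 CPM, and lowest in those of the *H2-Aa*, *Ccr2* and *Ciita* set, at 161 and 172 CPM. *Fxyd2* followed, with 1424 and 1506 CPM in the Cav1 set. *Lyve1* did not. It was at 1707 and 1528 CPM in the cells of the *Vsig4*, *S100b* and *Ecscr* set (the Vsig4 set) and at 1483 and 1380 CPM in the Ednrb set, and at 245 and 250.5 CPM in the Cav1 set. With β-glucan the Vsig4 set was therefore level with the Aqp1 macrophages at 1691 CPM, and with PBS it was below them at 1764 CPM. For *Fxyd2* the Cav1 set was therefore the closest to the Aqp1 macrophages, and for *Lyve1* the Vsig4 and Ednrb sets were.

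Markers of other cell types were checked because *Aqp1* is a gene of erythrocytes and endothelium and *Lyve1* one of lymphatic vessels. The 11 macrophage markers summed to 11655 and 12225 CPM in Aqp1 macrophages, led by *C1qa*, and none was at 0. The 12 endothelial markers summed to 102 and 74.4 CPM against 76.4 and 72.7 CPM in the other macrophages, led by *Eng*, a gene that macrophages also express, at 67.2 and 60.4 CPM. *Pecam1* was at 5.05 and 2.92 CPM, *Cdh5* at 1.91 and 1.25 CPM, and *Tie1* and *Cldn5* were at 0 with PBS. Besides *Lyve1*, the list of 8 lymphatic endothelial markers was almost all *Pdpn*, at 40.0 and 46.5 CPM, and *Pdpn* was a gene of another set of the rule. *Prox1* had 2 and 10 UMIs in all, *Ccl21a* and *Tbx1* were at 0 in both libraries, *Reln* with β-glucan, and *Flt4* and *Mmrn1* with PBS. The 8 erythroid markers measured, of 9 listed, summed to 1.09 and 0.42 CPM, with *Slc4a1*, *Hba-a2* and *Hbb-bt* at 0 in both libraries. The defining genes of erythrocytes and of endothelium were thus at or near 0 in cells rich in *Aqp1* and *Lyve1*.

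The remaining lists were low, with 1 exception. B cell markers summed to 123 and 69.3 CPM, led by *Ighm*, and T cell markers to 3.01 and 12.8 CPM. Mast cell and basophil markers summed to 19.0 and 9.02 CPM, led by *Hdc*, and dendritic cell markers to 16.4 and 15.7 CPM, led by *Zbtb46*. Neutrophil markers summed to 152 CPM with β-glucan, led by *S100a9*, and 48.3 CPM with PBS, led by *Il1r2*, with *Ly6g* at 0, against 525 and 188 CPM in the other macrophages. Schwann cell and nerve markers summed to 86.1 and 86.3 CPM, nearly all *Mbp*. Mural and muscle markers summed to 165 and 196 CPM, nearly all *Cspg4*, somewhat above the 149 and 156 CPM in the other macrophages. Stromal markers were the exception at 553 and 514 CPM, against 409 and 293 CPM in the other macrophages. The leading gene was *Dcn* at 208 CPM with β-glucan and *Prg4* at 416 CPM with PBS, and *Pdgfrb* was at 0 with PBS. These came almost wholly from 1 cell each, which held 95.1% of the *Dcn* UMIs with β-glucan and 99.3% of the *Prg4* UMIs with PBS. The 5 highest cells held 95.9% and 99.5%. At least 3 UMIs of *Col1a1*, *Col1a2*, *Col3a1*, *Dcn*, *Lum* and *Prg4* together were found in 14 of the 516 and 9 of the 429 cells (2.71% and 2.10%), against 5.05% of the other macrophages in each library. Some genes of these marker lists had enough reads for the comparison made next. Of these, 4 of 4 neutrophil and 3 of 3 mast cell and basophil genes were past 2-fold lower than in the other macrophages. Of 6 stromal genes *Prg4* was past 2-fold higher. Over all genes, 1.4% were past 2-fold lower and 0.955% higher.

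Across the transcriptome, the Aqp1 macrophages were compared with all other eligible macrophages of the same library. Of 8589 genes whose mean level reached 10 CPM, 82 were 2-fold or more higher in both libraries (0.955%) and 120 were 2-fold or more lower (1.4%). The rule on cells had used 3 of the former and 8 of the latter, and the choice of cells bears on every gene, so these counts are a description and no test was made. Among genes outside the rule at 50 CPM or more in the other macrophages, those with the lowest ratios were led by genes of MHC class II.

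The 20 highest genes outside the rule, at 50 CPM or more in the Aqp1 macrophages of both libraries, were also looked up in the other sets. Aqp1 macrophages had the highest level of 13 of them in both libraries, of 4 in 1 library and of 3 in none. *Fermt2*, which codes for kindlin-2, a partner of integrins, was at 115 against 37.6 CPM with β-glucan and at 124 against 48.6 CPM with PBS, log2 ratios of 1.62 (1.50 to 1.73) and 1.35 (1.24 to 1.47). It is 1 of the 3 and was higher in the Vsig4 set, at 139 and 169 CPM. The others are *Neo1* and *Tshz3*, also highest in the Vsig4 set. *Tmod1*, whose product tropomodulin caps actin filaments, was at 146 against 49.8 CPM and 148 against 44.5 CPM, log2 ratios of 1.55 and 1.73, and the Ednrb set was close at 129 and 122 CPM. *Tppp*, which codes for a tubulin polymerization-promoting protein, was at 68.0 against 20.6 CPM and 73.6 against 23.0 CPM. *Synpo*, which codes for the actin-associated protein synaptopodin, was at 65.2 against 25.7 CPM and 57.6 against 26.5 CPM. *Rhoj*, a small GTPase known from endothelium, was at 105 against 43.5 CPM and 108 against 41.3 CPM. *Cdc42bpa*, a kinase that acts downstream of CDC42, was at 90.6 against 34.5 CPM and 86.8 against 31.8 CPM. *Magi1*, a scaffold of cell junctions, was at 50.1 against 17.5 CPM and 53.4 against 14.1 CPM, with log2 ratios of 1.52 and 1.93.

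*Plac9a* had the largest ratio of these 20 genes by the lower of the 2 libraries, at 89.1 against 20.5 CPM and 96.8 against 18.7 CPM, with log2 ratios of 2.12 (1.98 to 2.26) and 2.37 (2.23 to 2.52). The mouse genome holds a near-identical copy of it, so its counts are uncertain. *Neo1*, which codes for the guidance receptor neogenin, was at 82.0 against 30.9 CPM and 62.3 against 25.3 CPM. *P3h2*, a prolyl hydroxylase of collagen, was at 86.3 against 31.2 CPM and 105 against 33.7 CPM. *Plpp1*, a lipid phosphate phosphatase, was at 60.8 against 23.3 CPM and 78.4 against 23.0 CPM. *Zbtb7c* and *Tshz3*, which code for zinc finger proteins, had log2 ratios of 1.44 and 1.46, and of 1.50 and 1.40. The ratios of *Cpne8*, *Rgs7bp*, *Efcab11*, *Cdr2* and *Epn2* lay between 1.13 and 1.66. *Cdc42bpa*, *Efcab11*, *Fermt2*, *P3h2*, *Plpp1*, *Synpo*, *Tshz3* and *Zbtb7c* overlap other annotated genes on their own strand, so their counts are less certain. *Fxyd2* and *Lyve1* complete the 20 genes. All 20 were chosen for being 2-fold or more higher in both libraries. Their likeness between the libraries in the plot of log2 ratios thus follows in part from the choice.

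**Figure D2:**
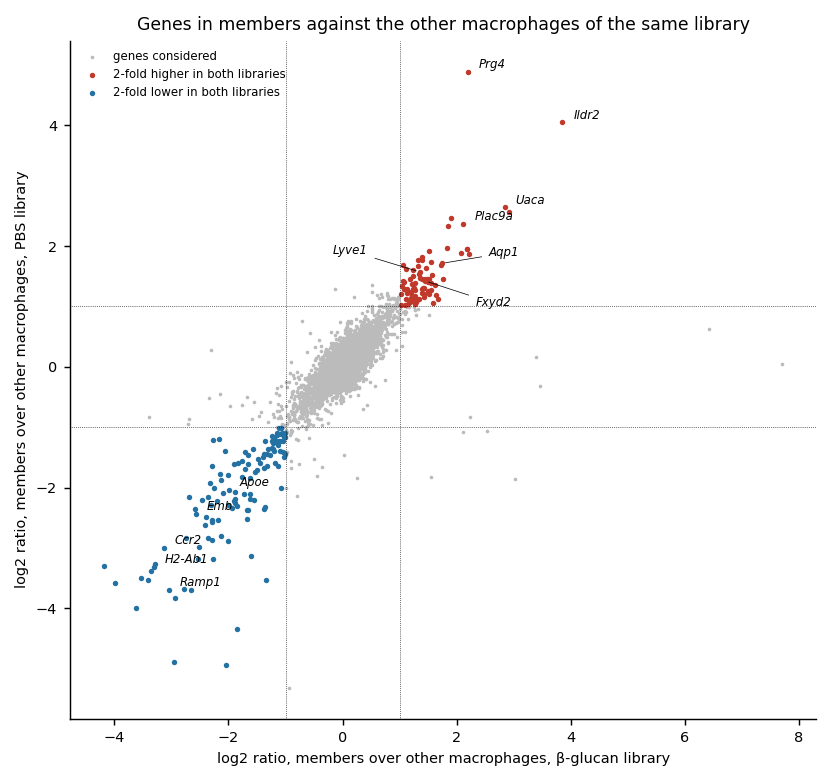
Log2 ratio of CPM in Aqp1 macrophages over the other eligible macrophages in the β-glucan library (horizontal) and in the PBS library (vertical), for genes whose mean level reached 10 CPM. Each point is 1 gene, genes without a UMI in 1 of the sums are not drawn, and dotted lines mark 2-fold. The 82 red points were 2-fold or more higher and the 120 blue points 2-fold or more lower in both libraries. *Prg4*, whose UMIs sat mostly in 1 cell of each library, is the highest point and lies off the diagonal.

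Among the 120 lower genes were 7 of MHC class II. Of 8 genes of the MHC class II list with enough reads, 7 were 2-fold or more lower, 5 of 6 outside the rule, beside 1.4% over all genes. The median log2 ratio of these 6 was -3.03 against 0.05 over all genes considered. *H2-Eb1* was at 58.6 against 624 CPM with β-glucan and 80.4 against 925 CPM with PBS, log2 ratios of -3.41 (-3.55 to -3.28) and -3.53 (-3.65 to -3.41). *H2-Ab1* was at 80.9 against 801 CPM and 118 against 1172 CPM. *Cd74*, the invariant chain, was at 233 against 2289 CPM and 364 against 3488 CPM. Scrublet, which scores likely doublets, marked 0 and 3 cells and so did not work here. Without the cells of highest Scrublet score, the log2 ratios with β-glucan went from -3.31 to -3.95 for *H2-Ab1* and from -3.30 to -4.07 for *Cd74*. With PBS they went from -3.32 to -3.35 and from -3.26 to -3.33. The peptide loaders *H2-DMa* and *H2-DMb1* had log2 ratios of -2.46 and -2.74 with β-glucan and of -2.21 and -2.83 with PBS. Cells rich in *H2-Aa* and *Ciita* had a set of their own in the rule and so stood among the other macrophages, with 2900 and 3601 CPM of *H2-Eb1*. The gap to the rest was smaller. The Vsig4 set had 54.4 and 257 CPM of *H2-Eb1*, the former no higher than in the Aqp1 macrophages, and the Cav1 set had 111 and 163 CPM. The 5 MHC class II genes named here overlap other annotated genes on their strand. The rest of the 10 lowest genes, at 50 CPM or more in the other macrophages, were *Ramp1*, a subunit of the CGRP receptor, at 6.15 against 51.0 CPM and 4.44 against 57.6 CPM, and *Mpeg1*, which codes for perforin-2, at 52.0 against 275 CPM and 45.1 against 253 CPM. *Napsa*, *Emb* and *Fabp5* completed them, with log2 ratios from -3.71 to -2.29. Aqp1 macrophages had the lowest level of 5 of the 10 in both libraries, of 4 in 1 library and of 1 in none. The last was *Emb*, at 17.8 and 19.2 CPM against 12.6 and 7.90 CPM in the Vsig4 set. *Ramp1* was low in the Ednrb set too, at 9.17 and 8.68 CPM, and *Napsa* in the Vsig4 set, at 7.04 and 9.28 CPM. *Fabp5* codes for a fatty acid-binding protein.

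Genes of resident interstitial macrophages were described with a list of 23. Of 22 with enough reads, 2 were past 2-fold, *Lyve1* and *Cd163*, and none was lower past 2-fold in both libraries, beside 0.955% higher and 1.4% lower over all genes, with a median log2 ratio of 0.30 against 0.05 over all genes. *Cd163*, the receptor for haemoglobin-haptoglobin, was at 610 against 297 CPM with β-glucan and 606 against 241 CPM with PBS, log2 ratios of 1.04 and 1.33. It was just past 2-fold with β-glucan, where it had 0.99 with a score threshold of 1 or scaling by the median of gene ratios and 0.93 with equal weight per cell. *Pf4* was at 4130 against 2364 CPM and 3989 against 2240 CPM, and *F13a1*, the A chain of coagulation factor XIII, at 2378 against 1520 CPM and 2110 against 1181 CPM. *Folr2*, a folate receptor, was at 478 against 333 CPM and 497 against 347 CPM. *Timd4*, a receptor for phosphatidylserine, was at 38.0 against 20.8 CPM and 42.5 against 19.3 CPM. For both of the last genes the Ednrb and Vsig4 sets were higher than the Aqp1 macrophages. *Folr2* was at 709 and 821 CPM in the Ednrb set and 697 and 731 CPM in the Vsig4 set, and *Timd4* at 74.5 and 79.2 CPM and at 47.9 and 45.9 CPM. *Mrc1* and *Selenop* differed little, with log2 ratios of 0.23 and 0.33, and of 0.01 in each library.

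Lists of lining and lipid-associated macrophages were described in the same way. Of 15 lining genes with enough reads, *Fermt2* was past 2-fold higher, and *Cx3cr1*, *Axl* and the rule gene *S100b* past 2-fold lower, beside 0.955% and 1.4% over all genes. The median log2 ratio of the 13 lining genes outside the rule was 0.26, close to that of the resident list. *Cx3cr1*, the fractalkine receptor that marks the lining, was at 61.7 against 250 CPM and 60.9 against 211 CPM, and *Axl*, a receptor for apoptotic cells, at 14.2 against 42.2 CPM and 18.2 against 47.0 CPM. *Cx3cr1* was lower still in the Ednrb set, at 47.4 and 29.4 CPM. Of 17 lipid-associated genes, 6 were past 2-fold lower, 1 of them a gene of the rule, and none higher, beside 1.4% lower over all genes. *Apoe* was at 1474 against 5855 CPM and 1416 against 5818 CPM, log2 ratios of -1.99 and -2.04. *Spp1*, which codes for osteopontin, was at 130 against 336 CPM and 73.6 against 376 CPM, and lower still in the Ednrb set, at 33.9 and 19.1 CPM. *Fabp5*, *Lpl*, *Ctsd* and the rule gene *Gpnmb* were the others. *Cd36*, a scavenger receptor of the same list, was on the other side of 0, at 1530 against 907 CPM and 1333 against 806 CPM.

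The list of water and ion transport held 31 genes, 17 of them with enough reads, and *Aqp1* and *Fxyd2* were the only ones past 2-fold higher. *Atp1b3*, a beta subunit of the pump that *Fxyd2* binds, was at 324 against 278 CPM with β-glucan and 316 against 283 CPM with PBS. *Slc12a2*, the Na-K-Cl cotransporter, was at 14.5 against 8.55 CPM and 16.2 against 9.10 CPM. The median log2 ratio over the 17 genes was 0.09 against 0.05 over all genes considered. Of 13 genes of the list of caveolae and membrane scaffold, *Cavin1* and *Cavin3*, which coat caveolae, and the rule gene *Uaca* were past 2-fold higher, and the rule gene *Cav1* past 2-fold lower, beside 0.955% and 1.4% over all genes. *Cavin1* was at 225 against 91.8 CPM and 213 against 101 CPM, and *Cav1* at 18.9 against 70.5 CPM and 14.6 against 67.9 CPM.

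Further lists are given with fewer values, and their counts stand beside 0.955% of all genes higher and 1.4% lower. Of 12 genes of inflammatory cytokines and mediators, *Il1b*, at 41.7 against 148 CPM and 19.7 against 59.5 CPM, and *Ptgs2*, at 4.92 against 24.2 CPM and 1.94 against 9.50 CPM, were past 2-fold lower. Of 11 chemokine genes, *Ccl4* was past 2-fold lower, and of 33 genes of transcription factors, *Runx3* was. *Mmp14* and *Atp6v0d2* were past 2-fold lower among 16 genes of osteoclast differentiation. *Ccr2* and *Thbs1* were among 5 monocyte genes, *Ccr2* being a gene of the rule. Of 17 genes of scavenger receptors and engulfment, *Cd163* was past 2-fold higher, and *Axl* and the rule gene *Olr1* lower, and of 14 genes of iron and haem handling, *Cd163* alone was higher. None was past 2-fold among 14 complement, 12 growth factor, 19 hypoxia and glycolysis, 7 interferon-stimulated, 10 cell cycle or 23 immediate early and stress genes. Of the 16 genes that the study compares between the groups, *Cx3cr1* was past 2-fold.

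The other sets were ranked by the second highest score of the Aqp1 macrophages, which uses the genes of the rule. It was for the Cav1 set in 36.9% of them and for the Ednrb set in 20.6%, followed by the Vsig4 set with 16.9% and the *Gpnmb*, *Ms4a7* and *Cd93* set (the Gpnmb set) with 15.2%. The genes of the Cav1 set were not alike in Aqp1 macrophages. *Cav1* itself was lower than in the other macrophages, at 18.9 against 70.5 CPM and 14.6 against 67.9 CPM. *Ndrg1* was nearly level, at 59.3 against 51.0 CPM and 58.2 against 50.8 CPM. *Tppp3* was higher, at 1225 against 729 CPM and 1217 against 752 CPM. Against the cells of the Cav1 set, 213 of 8539 genes were 2-fold or more higher in both libraries (2.49%) and 105 lower (1.23%). *Lyve1* and *Cd163* were among the higher. *Lyve1* had log2 ratios of 2.79 (2.72 to 2.86) in the β-glucan library and 2.82 (2.74 to 2.89) in the other, and *Cd163*, at 610 against 80.3 CPM and 606 against 88.4 CPM, had 2.93 and 2.78. *Sema6a*, a semaphorin, was at 54.2 against 5.79 CPM and 69.8 against 3.39 CPM, and *Egfr*, the receptor for epidermal growth factor, at 143 against 26.7 CPM and 199 against 18.5 CPM, but it was higher still in the Ednrb set, at 258 and 437 CPM. *Spp1* was lower, at 130 against 572 CPM and 73.6 against 730 CPM, as was *Nt5e*, the ectonucleotidase CD73, at 9.29 against 79.7 CPM and 4.16 against 66.2 CPM. *Aqp1* and *Fxyd2* differed far less between these cells, with log2 ratios of 0.75 and 0.67 for *Aqp1* and of 0.34 and 0.29 for *Fxyd2*.

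Against the cells of the Ednrb set, 130 of 8618 genes were 2-fold or more higher (1.51%) and 132 lower (1.53%). *Rarb*, a retinoic acid receptor, was at 161 against 22.9 CPM and 199 against 28.7 CPM. *Fermt2* was at 115 against 15.9 CPM and 124 against 19.8 CPM, and *Cspg4*, the proteoglycan NG2, at 162 against 25.8 CPM and 177 against 20.7 CPM. *Cd9*, a tetraspanin, was at 936 against 210 CPM and 1130 against 200 CPM. *Cd209f*, *Clec10a* and *Mgl2*, which code for C-type lectins, were among the 10 genes with the lowest ratios, at 50 CPM or more in the Ednrb set. No list of C-type lectins was counted against all genes. *Cd209f* was at 4.51 against 125 CPM and 13.7 against 193 CPM, *Clec10a* at 26.4 against 258 CPM and 26.9 against 325 CPM, and *Mgl2* at 25.1 against 212 CPM and 35.7 against 257 CPM. These belong to families of similar genes, so their counts can be split between copies. *Lyve1* was close in both kinds of cell, with log2 ratios of 0.19 (0.15 to 0.23) and 0.35 (0.31 to 0.40), and *Cd163* was about 2-fold lower in Aqp1 macrophages, with log2 ratios of -0.96 and -0.92.

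To see whether the cells were alike in genes that had not chosen them, the 20 nearest neighbours of each macrophage were found on 30 principal components made without the 26 genes of the rule. Of the neighbours of Aqp1 macrophages, 43.8% with β-glucan and 50.1% with PBS were Aqp1 macrophages too, against 12.9% of all eligible macrophages. Cells of the Ednrb set had 14.4% and 17.0% such neighbours, those of the Vsig4 set 11.4% and 10.95%, those of the Cav1 set 9.39% and 9.26%, and those of the *H2-Aa* set 1.69% and 2.07%. The Cav1 set, first by second highest score, was thus below the share over all macrophages by this measure. A high share of neighbours from the same set was not particular to Aqp1 macrophages. It was lowest of the other sets at 37.3% and 36.4% in the *Olr1*, *Pdpn* and *Rgs1* set, which made up 10.3% of all macrophages. It was highest at 64.4% and 63.4% in the Vsig4 set, which made up 11.8%. Genes that follow those of the rule remained in the components, so this is a description as well. About as many neighbours of Aqp1 macrophages were not Aqp1 macrophages, and the group thus had no sharp border.

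**Figure D3:**
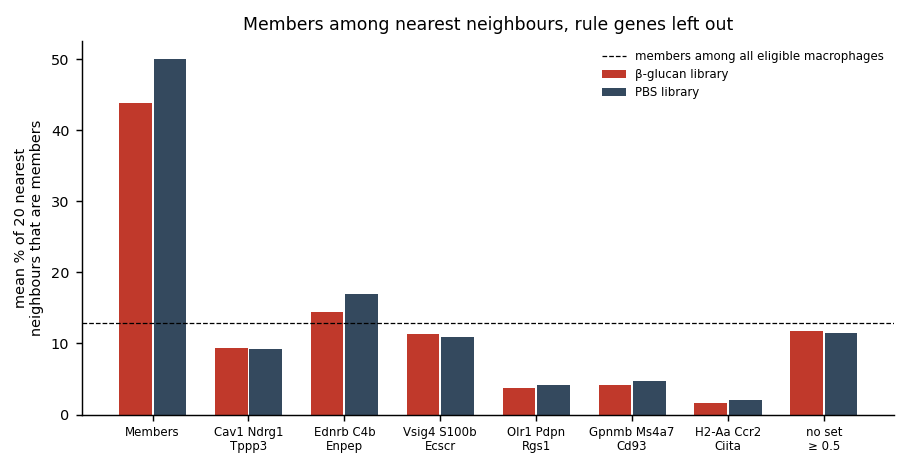
Mean share of the 20 nearest neighbours that were Aqp1 macrophages, for the cells of each set in the β-glucan library (red) and the PBS library (dark blue). The dashed line marks the 12.9% that Aqp1 macrophages made up of all eligible macrophages, and the bars of the Aqp1 macrophages stand at 43.8% and 50.1%.

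The Aqp1 macrophages varied among themselves. All 3 genes of the score had a UMI in 212 of 516 cells with β-glucan and 180 of 429 with PBS, 2 genes in 296 and 244 cells, and 1 gene in 8 and 5 cells. *Aqp1* had a UMI in 97.9% of the cells of each library, *Uaca* in 78.1% and 76.2%, and *Ildr2* in 63.6% and 66.7%. Per 10000 UMIs of a cell, *Lyve1* had a median of 11.8 with β-glucan, with quartiles of 3.6 and 23.4 and a highest value of 99.1, and a median of 13.9 with PBS, with quartiles of 4.24 and 24.9 and a highest value of 85.9. *Fxyd2* spread as widely, with medians of 8.60 and 9.59 and upper quartiles of 26.3 and 25.2. *Cd163* was below both, with medians of 2.16 and 2.63 and lower quartiles of 0. The cells with a UMI of 1 of these genes alone differed from the rest, with *Lyve1* at 178 and 488 CPM and *Apoe* at 6245 and 12921 CPM.

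Part of this spread followed the second highest score. *Aqp1* was at 2372 and 2206 CPM, and *Fxyd2* at 2721 and 2792 CPM, in the 198 β-glucan and 151 PBS Aqp1 macrophages whose second highest score was for the Cav1 set. In the 114 and 81 cells next to the Ednrb set, *Aqp1* was at 1366 and 1291 CPM and *Fxyd2* at 1193 and 1156 CPM. *Lyve1* was highest in the 84 and 76 cells next to the Vsig4 set, at 2525 and 2288 CPM. *Cd163* was highest next to the Ednrb set, at 1035 and 931 CPM, followed by the 73 and 71 cells next to the Gpnmb set, at 796 and 902 CPM. *Apoe* ran the other way from *Fxyd2*, with 452 and 274 CPM next to the Cav1 set and 3168 and 3673 CPM next to the Gpnmb set. Within the Aqp1 macrophages, then, cells next to the Cav1 set had the most *Aqp1* and *Fxyd2* and the least *Apoe* in both libraries. The second score used these cells' own genes, so the grouping is a description.

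**Figure D4:**
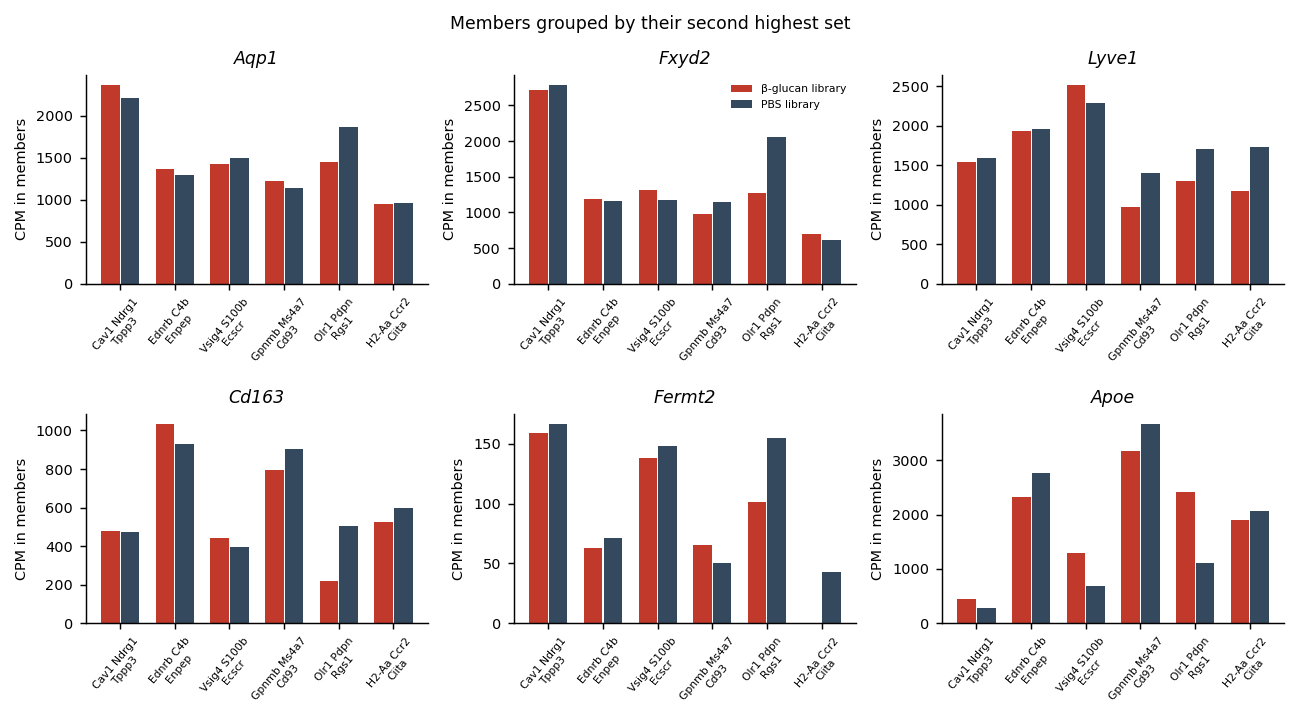
CPM of 6 genes in the Aqp1 macrophages, grouped by the set for which they had their second highest score, in the β-glucan library (red) and the PBS library (dark blue). Bars are sums over the cells of a group in 1 library and carry no error, and the 2 groups on the right hold 15 to 35 cells per library. *Fxyd2* is highest on the left, at 2721 and 2792 CPM, where *Apoe* is lowest.

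*Lyve1* had a UMI in 463 of 516 Aqp1 macrophages with β-glucan (89.7%, 86.8% to 92.2%) and in 383 of 429 with PBS (89.3%, 86.0% to 92.0%). With each cell thinned to 5000 UMIs, which left out 19 and 8 cells, the shares were 84.3% and 85.7%. In the other macrophages they were 48.5% and 47.3%, and 41.6% and 38.0% thinned. Free RNA in the droplets gives a background, for which B cells, which do not express the gene, served as a measure. Their shares were 4.69% and 6.86% at a median of 5453 and 5954 UMIs, and 4.76% and 5.06% thinned. Both macrophage shares lay far above that. Cells without a *Lyve1* UMI were 53 and 46, with a median of 11672 and 11952 UMIs against 13608 and 16276 in those with one.

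Against the cells without a *Lyve1* UMI, those with one had 52 of 8575 genes 2-fold or more higher in both libraries (0.606%) and 22 lower (0.257%). The 5 highest were *Plac9a*, *Ccr1*, *Ltc4s*, *Sparc* and *Vsig4*, by the lower of the 2 libraries and among genes at 50 CPM or more in the cells with a UMI. Below that level, *Timd4* had larger ratios, at 41.3 against 1.62 CPM and 45.9 against 4.92 CPM, with log2 ratios of 4.68 (2.19 to 9.98) and 3.22 (1.66 to 5.51). *Ltc4s*, the synthase of leukotriene C4, was at 279 against 66.3 CPM with β-glucan and 307 against 93.5 CPM with PBS, log2 ratios of 2.07 (1.63 to 2.56) and 1.72 (1.34 to 2.12). *Vsig4*, a complement receptor, was at 396 against 126 CPM and 293 against 54.1 CPM, and *Ccr1*, a chemokine receptor, with log2 ratios of 1.72 and 1.90. *Plac9a* was at 96.1 against 12.9 CPM and 105 against 8.20 CPM. *Sparc* was at 192 against 24.3 CPM and 72.3 against 23.0 CPM, and 71.0% of its UMIs with β-glucan lay in 5 cells. *Folr2* was at 498 against 262 CPM and 521 against 236 CPM, and *Cd163* at 620 against 503 CPM and 633 against 308 CPM. *Apoe* lay the other way, at 1376 against 2541 CPM and 1294 against 2739 CPM. *Ildr2* and *Uaca* had intervals that held 0 in both libraries. The third gene of the score, *Aqp1*, was higher in cells with a *Lyve1* UMI, with log2 ratios of 0.40 (0.30 to 0.50) and 0.44 (0.34 to 0.55).

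The comparison of the groups asks what β-glucan given before arthritis left in these cells. Of 3988 genes whose mean level reached 50 CPM, 9 were 1.5-fold or more higher with β-glucan (0.226%) and 18 lower (0.451%). The same genes in the other eligible macrophages gave 9 higher and 10 lower, of which 5 and 7 were shared in direction with the Aqp1 macrophages. Of the 5 markers, the 3 genes of the score had passed the same threshold in both libraries, so their ratios are a description. The log2 ratios of β-glucan over PBS were 0.06 (0.02 to 0.09) for *Aqp1*, -0.03 (-0.07 to 0.00) for *Fxyd2*, -0.06 (-0.10 to -0.03) for *Lyve1*, -0.05 (-0.19 to 0.09) for *Ildr2* and 0.16 (0.03 to 0.29) for *Uaca*.

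*Mitf*, which codes for a transcription factor of osteoclasts and pigment cells, was at 605 CPM with β-glucan and 355 CPM with PBS, a log2 ratio of 0.77 (0.70 to 0.84) that was 0.76 (0.73 to 0.78) in the other macrophages. The log2 ratio was 0.80 without the 5 highest cells of each library. *Pdgfc*, a growth factor of the PDGF family, was at 212 and 120 CPM, a log2 ratio of 0.82 (0.70 to 0.95) beside 0.76 in the other macrophages. *Fgd4*, an exchange factor for CDC42, was at 179 and 106 CPM, and *Calcrl*, a receptor for CGRP and adrenomedullin, at 70.8 and 46.4 CPM, with log2 ratios of 0.75 and 0.61 beside 0.89 and 0.72. The noncoding genes *Airn* and *E130307A14Rik* had log2 ratios of 0.61 and 0.60 beside 0.41 and 0.32. The ratios of these 6 genes were above 0 in Aqp1 macrophages and in the others alike. *Dcn* and *Sparc*, the 2 largest ratios, and *Spp1* rested on few cells. With β-glucan, 1 cell held 95.1% of the *Dcn* UMIs and 1 cell 56.6% of the *Sparc* UMIs. Without the 5 highest cells the log2 ratios of *Dcn*, *Sparc* and *Spp1* went from 4.80 to 0.58, from 1.38 to 0.04 and from 0.82 to 0.03.

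*Retnla* and *Slc7a2* had the lowest ratios. *Retnla*, a gene of alternatively activated macrophages, was at 34.0 CPM with β-glucan and 604 CPM with PBS, a log2 ratio of -4.15 (-4.34 to -3.97) beside -1.59 in the other macrophages. *Slc7a2*, a transporter of arginine, was at 26.5 and 352 CPM, a log2 ratio of -3.73 (-3.95 to -3.52) beside -3.78. The 5 highest cells held 57.8% and 71.4% of the *Retnla* UMIs and 40.7% and 47.8% of the *Slc7a2* UMIs, and without them the log2 ratios were -3.61 and -3.57. The size of both depended on which cells were chosen. With a score threshold of 1 the log2 ratios were -2.88 and -3.02, and with a score made on cells thinned to 5000 UMIs -3.54 and -2.36. *Prg4* was at 38.0 and 416 CPM, a log2 ratio of -3.45, but was 0.79 without its 5 highest cells. In each library 1 cell held most of its UMIs, 85.3% with β-glucan and 99.3% with PBS. *AA467197* and *Stmn1* were lower as well, with log2 ratios of -0.92 and -1.05, and -0.83 and -0.63 without 5 cells. In the other macrophages the 2 genes had -1.47 and -0.41.

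Genes of the immediate early response and of stress mostly had ratios below 0. Of 14 such genes with enough reads, 13 had a log2 ratio below 0, beside 46.7% over all genes, with a median of -0.43 against -0.17 over the same genes in the other macrophages and 0.01 over all genes of the Aqp1 macrophages, and *Fos* and *Dusp1* were past 1.5-fold, beside 0.451% over all genes. *Dusp1*, a phosphatase of MAP kinases, was at 156 and 288 CPM, a log2 ratio of -0.88 (-0.99 to -0.78) beside -0.32. *Fos* was at 224 and 338 CPM, a log2 ratio of -0.59 (-0.68 to -0.50) beside 0.14. It was barely past 1.5-fold, and under 6 alternatives it was within it, with log2 ratios from -0.56 to -0.41. *Jun* was the 1 gene above 0, at 113 and 101 CPM. Outside this list, *Sik1*, a kinase induced by cyclic AMP, was at 30.1 and 71.5 CPM, *Per1*, a gene of the circadian clock, at 43.0 and 80.2 CPM, and *Tagap* at 42.2 and 71.2 CPM. *Nfkbia*, which codes for the inhibitor of NF-kappaB, was at 112 and 172 CPM. The log2 ratios of *Sik1*, *Per1*, *Tagap* and *Nfkbia* were -1.25, -0.90, -0.75 and -0.62. In the other macrophages they were below 0 as well, at -0.53, -0.96, -0.30 and -0.40. The list of immediate early and stress genes also holds genes that the dissociation of tissue induces, and the part of dissociation in these ratios was not tested.

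**Figure D5:**
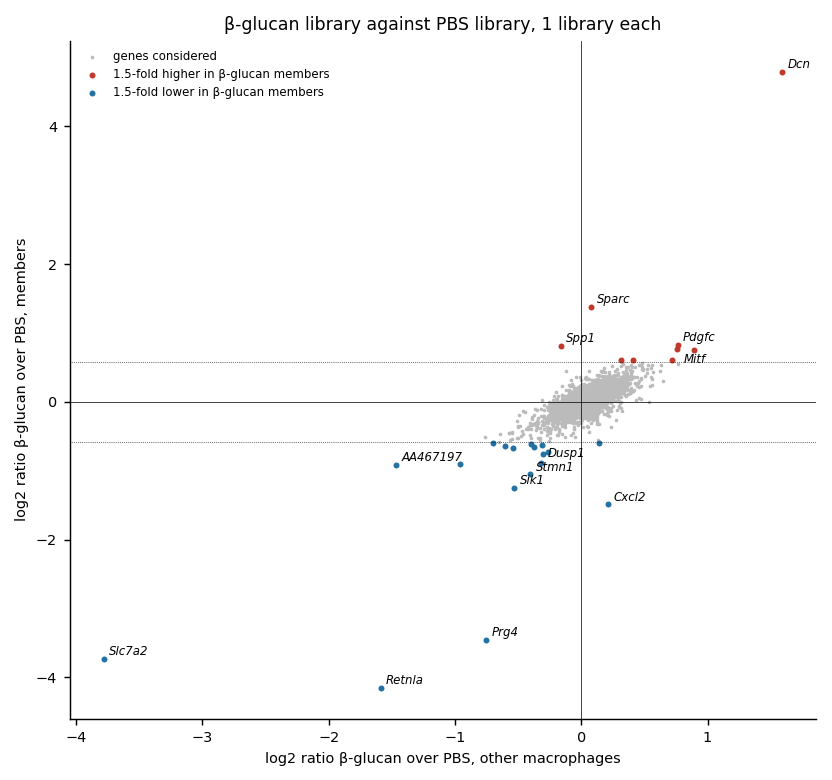
Log2 ratio of the β-glucan library over the PBS library in the other eligible macrophages (horizontal) and in the Aqp1 macrophages (vertical), for the 3988 genes whose mean level reached 50 CPM in the latter. Each point is 1 gene, dotted lines mark 1.5-fold, and each group is 1 library. *Mitf* and *Pdgfc* lie near the same value on both axes, whereas *Spp1*, *Sparc* and *Cxcl2* do not.

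MHC class II genes, already low in these cells, had ratios below 0. All 5 of the list with enough reads were below 0, with a median log2 ratio of -0.53 beside -0.55 in the other macrophages, and *Cd74* was past 1.5-fold, at 233 and 364 CPM, a log2 ratio of -0.64 (-0.73 to -0.56). *Cebpb*, which codes for a transcription factor of macrophages, was at 231 and 351 CPM, a log2 ratio of -0.60 beside -0.70, and within 1.5-fold under 4 alternatives, with log2 ratios from -0.58 to -0.54. Of 13 genes of scavenger receptors and engulfment, all 13 were above 0 and none past 1.5-fold, with a median log2 ratio of 0.09 beside 0.15 in the other macrophages. Over all 3988 genes, 53.3% were above 0 and the median was 0.01. Of 20 genes of resident interstitial macrophages, 12 were above and 8 below 0, and *Retnla* alone was past 1.5-fold. *Cd163* was at 610 and 606 CPM and *Mrc1* at 1526 and 1525 CPM. Of 12 water and ion transport genes, 10 were above 0 and none past 1.5-fold, with a median log2 ratio of 0.06 beside 0.00 in the other macrophages. Over all genes, 0.226% were past 1.5-fold higher and 0.451% lower.

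Of the 16 genes that the study compares between the groups, 15 had enough reads. Of these, 13 were above 0, beside 53.3% over all genes. *Mitf* alone was past 1.5-fold, beside 0.226% higher over all genes. The median log2 ratio was 0.16, beside 0.26 in the other macrophages and 0.01 over all genes. *Klf2* and *Clec5a* were the 2 below 0, with log2 ratios of -0.43 and -0.23. The study chose the 16 genes on these libraries, so they are not independent of its comparison. *Myo5a* was at 860 and 680 CPM, *Elmo1* at 1037 and 887 CPM and *Mef2c* at 566 and 483 CPM, with log2 ratios of 0.34, 0.22 and 0.23 beside 0.40, 0.28 and 0.44. *Nr4a1*, below the minimum, was at 29.1 and 61.8 CPM. Many of these are long genes. Of the genes with an annotated span, the median log2 ratio was -0.06 for 651 genes under 10 kb, 0.00 for 2461 genes of 10 to under 100 kb and 0.10 for 873 genes of 100 kb or more, and it was -0.09, 0.02 and 0.14 in the other macrophages. *Mitf* spans 214 kb and *Pdgfc* 178 kb, and both were well past the median of their class. Why ratios followed span was not tested.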

How the data were processed

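Synovial CD45+CD11b+ cells of 2 groups were measured as 1 library each with a droplet-based 3′ kit. The authors deposited counts of UMIs per gene and barcode, made with Cell Ranger 7.0.0 on GRCm39, with no normalization. Their processing notes name mm10 too, with no role, and whether introns were counted is not given in the sources used here. The files list 32524 genes, of which 31870 matched GENCODE vM39 by Ensembl ID for coordinates and span.

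Cells were scored and chosen as the text describes, and UMIs were summed per library over chosen and other cells, divided by the total of the sum (CPM) and compared as log2 ratios with exact conditional Poisson intervals. Shares have exact Clopper-Pearson intervals. PCR copies were collapsed by UMIs, and intervals cover counting error only. Sums of members held 7320822 and 7203998 UMIs. With 1 library per group no test was made. Scrublet marked 0 and 3 cells (0% and 0.0659%) and so did not work here. No doublet was removed, and leaving out the 260 and 166 cells of highest score was an alternative. Those cells were 5.23% and 3.26% of the Aqp1 macrophages and 5.29% and 4.38% of the others. Components for neighbours used 2000 variable genes. B cells were cells with at least 5 UMIs of *Cd79a* and *Cd79b* and fewer than 3 of the C1q genes.

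The members, the 33 gene lists and the tests were chosen with earlier results of these data known. Named genes were the 20 highest and 10 lowest in the cells outside the rule (at least 50 CPM), the 10 highest and 10 lowest of β-glucan over PBS among those with a mean of at least 50 CPM, the markers, genes of the rule, genes of the lists and the 5 highest of the *Lyve1* split. In the comparisons with 2 other sets, genes were taken from the 10 highest and 10 lowest. Only the 9 genes past 1.5-fold among the 10 highest of β-glucan over PBS are named. Methods were checked on simulated sums. Tools were Python 3.11.15, numpy 2.4.6, scipy 1.17.1, pandas 2.3.3, scanpy 1.11.5 and scikit-learn 1.9.0. Alternatives were other thresholds, filters, scalings and weights, thinned cells and doublets left out. Leaving out cells with stromal UMIs, and each gene's 5 highest cells, were chosen after seeing the data. Some genes of the lists are not reported here.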

Additional observations from a re-analysis of the deposited data

Results flagged for a closer look

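*Spp1*, *Cxcl2* and *Fos* stood out because β-glucan over PBS had opposite signs in Aqp1 macrophages and in the other macrophages. With 1 library per group the difference was not tested. *Spp1* was at 130 CPM with β-glucan and 73.6 CPM with PBS in Aqp1 macrophages, a log2 ratio of 0.82 (0.66 to 0.97), and had -0.16 (-0.19 to -0.13) in the others. The 5 highest cells held 74.1% and 55.5% of its UMIs, and without them the log2 ratio was 0.03. With a score made on cells thinned to 5000 UMIs it was -0.11, the same sign as in the others. *Cxcl2*, a chemokine that attracts neutrophils, was at 26.8 and 75.1 CPM, a log2 ratio of -1.49 (-1.73 to -1.25), and had 0.21 (0.16 to 0.27) in the others. The 5 highest cells held 62.2% and 76.9% of its UMIs, and without them the log2 ratio was -0.78. It was -0.93 with a score threshold of 1 and -0.11 with the thinned score, the latter within 1.5-fold. *Fos* was at 224 and 338 CPM, a log2 ratio of -0.59 (-0.68 to -0.50), and had 0.14 (0.12 to 0.17) in the others. Its 5 highest cells held 16.9% and 16.7% of the UMIs, and without them the log2 ratio was -0.59. It lay from -0.82 with a score threshold of 1 to -0.41 with the thinned score, and was within 1.5-fold with the latter and with other filters on cells, other C1q minimums and standardization within libraries.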

How the results depend on the processing

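The shares of Aqp1 macrophages were 12.2% with β-glucan and 13.9% with PBS. A score threshold of 1 in place of 0.5 gave 7.99% and 8.93%, and a score made on cells thinned to 5000 UMIs gave 11.5% and 11.6%, in which 613 of 809 cells were among the 945. The other thresholds and filters on cells gave 12.0% to 13.2% and 13.5% to 14.8%. With 2 times the CPM minimum, 46 genes were higher and 72 lower in Aqp1 macrophages than in others, all among the 82 and 120. With the thinned score, 55 were higher and 97 lower, of which 52 and 88 were among the 82 and 120. Of genes past 1.5-fold between the libraries, 14 were higher with a score threshold of 1, 5 of them among the 9, and 29 were higher and 32 lower with 0.5 times the CPM minimum and 10 lower with 2 times it. With the thinned score the log2 ratio of β-glucan over PBS was -0.11 for both *Spp1* and *Cxcl2* and -2.36 for *Slc7a2*, and with a score threshold of 1 it was -2.88 for *Retnla*. *Prg4* had 0.87 with a score threshold of 1, 4.0 with the stricter filter, 3.77 with standardization within libraries, 0.74 without cells with stromal UMIs and 0.79 without its 5 highest cells. *Mitf*, *Pdgfc*, *Retnla*, *Slc7a2*, *Fxyd2*, *Lyve1* and *Apoe* kept their direction in every alternative run. The cause of these differences was not tested. No replicate could be left out and no paired analysis was possible because each group is 1 library. Which mouse a cell came from is not labelled, so the spread between mice is unknown, and intervals cover counting error only.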

Other observations

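Of 14 genes of the hypoxia and glycolysis list with enough reads in Aqp1 macrophages, 10 were below 0, beside 46.7% over all genes, and none was past 1.5-fold, with a median log2 ratio of -0.23 beside -0.26 in the other macrophages and 0.01 over all genes of the Aqp1 macrophages. *Gapdh* was at 583 CPM with β-glucan and 700 CPM with PBS, *Pgk1* at 88.8 and 117 CPM, and *Ldha* at 214 and 265 CPM. *Hif1a*, which codes for a subunit of the hypoxia-inducible factor, was at 117 and 111 CPM. *Wwp1*, a ubiquitin ligase, was at 683 and 472 CPM, a log2 ratio of 0.53 (0.47 to 0.60), and *Nrp1*, a receptor for semaphorins and VEGF, at 376 and 279 CPM, a log2 ratio of 0.43 (0.35 to 0.51). Both were within 1.5-fold, and their ratios in the other macrophages are not given here.

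Proliferation genes were low and uneven. *Mki67* was at 24.9 CPM with β-glucan and 53.2 CPM with PBS in Aqp1 macrophages, beside 23.4 and 31.5 CPM in the other macrophages, and *Top2a* at 7.92 and 33.7 CPM. For *Stmn1*, the 5 highest cells held 54.5% and 66.1% of the UMIs.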
